A study of Mus musculus with 21 samples.

Results

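Complement components made by the liver were followed in mice given an inhibitor of microRNA-122. The genes were taken from a named list of 9 complement proteins and regulators, and each was read from the probe set whose platform annotation gives that gene symbol alone. Of the 9, 8 were measured, with 1 probe set each, among 18193 genes with a probe set of their own. They were the terminal components Hc, C6, C8a, C8b and C9, the alternative pathway protease Cfb, the regulator Cfi and the lectin Mbl1. C3 had no probe set named for it alone and was not analysed here.

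Livers came from 18 female NMRI mice, an outbred stock, and their age is not stated in the labels. The treatment, called antimiR below, was SPC3372, an oligonucleotide with locked nucleic acid bases directed against microRNA-122, given at 25 mg per kg on day 2, and the comparison mice received saline. The 6 groups of 3 mice were antimiR and saline at day 3, at day 9 and at day 23. The labels carry 14 distinct mouse numbers, since 1, 2, 3 and 8 each recur at day 3 and day 9. The count of 18 takes a recurring number as different animals, because livers were taken when mice were killed and the design gives 3 biological replicates in each of 6 groups. All day 3 and day 9 livers were hybridised in the array set named p0617 and the day 23 comparison in p0621, and the 3 antimiR mice of day 23 were also hybridised in p0617. The values are log2 expression levels after RMA, so a difference of 1 is a 2-fold change. They compare 1 probe set between groups and do not rank genes against each other. Of 13 hepatocyte marker genes, the summed level on the log2 scale lay between 17.63 and 17.75 on all 18 arrays. The brightest genes, such as Alb, rule this sum, so it says little about the dimmer markers. At day 23 it was 17.72 to 17.75 in antimiR and 17.66 to 17.71 in saline livers, without overlap. In whole liver, fewer cells of a type and less RNA per cell cannot be told apart.

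Complement is a cascade of plasma proteins that marks and lyses microbes and damaged cells, and hepatocytes make most of its circulating components. The lectin, classical and alternative pathways each assemble a protease that cleaves C3 and then C5. The C5b fragment of C5 binds C6, C7 and C8, and this complex drives C9 to insert into membranes as a pore, the membrane attack complex. In mice the C5 gene is named Hc. Factor B (Cfb) supplies the protease of the alternative pathway, factor I (Cfi) inactivates C3b and C4b, and Mbl1 is a mannose-binding lectin that recognises microbial sugars.

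Promoter windows are shown for C9, the gene whose level differed most, and for C8b, a terminal component that did not pass the test on any day. Each is the 250 bases before the RefSeq start site on GRCm38.p6, 5′ to 3′ along the gene. The C9 window is chr15:6445096-6445345 on the plus strand and the C8b window is chr4:104766067-104766316 on the plus strand. Capitals mark letters that matched a searched motif on either strand.
C9: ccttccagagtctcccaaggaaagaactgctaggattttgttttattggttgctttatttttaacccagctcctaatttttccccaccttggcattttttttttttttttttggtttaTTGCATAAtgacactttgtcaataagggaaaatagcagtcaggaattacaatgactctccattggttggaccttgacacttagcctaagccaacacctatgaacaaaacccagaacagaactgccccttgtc
C8b: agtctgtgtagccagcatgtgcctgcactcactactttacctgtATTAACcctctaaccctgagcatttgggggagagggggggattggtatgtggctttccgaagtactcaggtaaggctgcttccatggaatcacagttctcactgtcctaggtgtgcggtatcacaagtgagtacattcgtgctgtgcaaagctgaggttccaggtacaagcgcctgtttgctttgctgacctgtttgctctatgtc
The capitals of C9 match TTGCNNAA, searched as a C/EBP site, and begin 132 bases before the start. C/EBP proteins are transcription factors of hepatocytes and of the acute phase. That motif was present in 9.56% of 32851 windows of the same length in the RefSeq table. The capitals of C8b match GTTAAT, a half-site of the hepatocyte factor HNF1, on the reverse strand, which 6.43% of windows held. The other motifs searched, on both strands, were TATAAA (the TATA box, in 12.4% of windows), CAAAGTNCA (HNF4, 1.19%), TGTTTAC (FOXA, 3.17%), TTCNNNGAA (STAT, 7.02%) and CACGTG (E-box, 6.02%), with the NF-kB site (1.41%) and the interferon-stimulated response element (2.98%) of 10 letters each. Their letters are not in either window. Binding at these letters was not measured in these data.

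C9, the pore-forming last component, was lower in antimiR livers at day 9. Its level was 10.83, 10.53 and 11.16 in the antimiR mice, against 12.28, 11.92 and 12.18 in the saline mice at that day. Every antimiR array lay below every saline array, and antimiR replicate 2 was the lowest. The mean was 10.84 ± 0.31 in antimiR and 12.13 ± 0.18 in saline livers (log2, SD, n = 3 each), a 2.44-fold fall (log2 difference -1.29, SE 0.23, adjusted p = 0.00644, limma with Benjamini-Hochberg adjustment over 18193 genes). C9 ranked 16 from the lowest of all log2 differences at day 9. Of the 8 measured complement components, C9 was the 1 that passed at day 9, and 0.896% of all genes passed as lower (2.81% either way).

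At day 3, C9 stood at 11.44, 11.72 and 11.83 in antimiR livers, against 12.49, 12.46 and 12.27 in saline livers. The groups again did not overlap, as was true of 10.4% of all genes in the downward direction at day 3 and 11.2% at day 9. The difference was -0.75 (SE 0.23, 95% interval -1.23 to -0.27) and did not pass after adjustment (adjusted p = 0.0747, limma). In a fit restricted to the 6 arrays of that day it passed (adjusted p = 0.0283).

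At day 23, C9 measured 11.00, 11.98 and 10.97 in antimiR livers, against 11.74, 12.35 and 11.94 in saline livers. The groups overlapped because antimiR replicate 2 lay above the saline replicates 1 and 3. The difference was -0.69 (95% interval -1.18 to -0.21, adjusted p = 0.170, limma), and -1.03 without antimiR replicate 2 (adjusted p = 0.0733). The same 3 mice on the p0617 arrays gave 10.92, 11.96 and 10.94, so the high level of replicate 2 was present on both arrays of that mouse.

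Averaged over the 3 days, a contrast added after the data were seen, C9 was 1.88-fold lower in antimiR livers (log2 -0.91, SE 0.13, adjusted p = 0.000306, limma). For this average 6.01% of all genes passed as lower. A change of the C9 difference between days was not detected. The day 9 effect minus the day 3 effect was -0.54 (95% interval -1.22 to 0.14, adjusted p = 0.530, limma), and the day 23 effect minus the day 9 effect was 0.59 (95% interval -0.09 to 1.27, adjusted p = 0.622, limma). Of the 8 genes, 0 passed for these changes or for day 23 against day 3, nor did any at an unadjusted p under 0.05, where 0.143%, 0.0055% and 0.302% of all genes passed after adjustment. In saline livers alone, C9 differed by -0.28 between day 9 and day 3 (adjusted p = 0.604).

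The C9 differences stood beside a difference in an array quality measure. On the log2 scale, the 3' probe set of the beta-actin control exceeded the 5' one by 1.14 ± 0.02 in antimiR and 0.93 ± 0.06 in saline livers at day 9 (SD, n = 3 each). It was 1.03 ± 0.02 in antimiR and 0.80 ± 0.05 in saline livers at day 3. At day 23 it was 1.15 ± 0.16 in antimiR and 1.16 ± 0.04 in saline livers. At day 3 and day 9 it was higher on every antimiR array than on every saline array. The measure and the treatment cannot be told apart on those days. With that difference as a covariate the day 9 difference of C9 was -1.13 and no longer passed (adjusted p = 0.185), and the day 3 difference was -0.58. The average over the 3 days was then -0.80 and did not pass either (adjusted p = 0.0508, limma). Of 13 hepatocyte markers 0 fell and 1, Apob, rose at day 9. Their summed log2 level, which the brightest genes rule, was 17.66 to 17.68 in antimiR and 17.63 to 17.67 in saline livers.

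**Figure D1:**
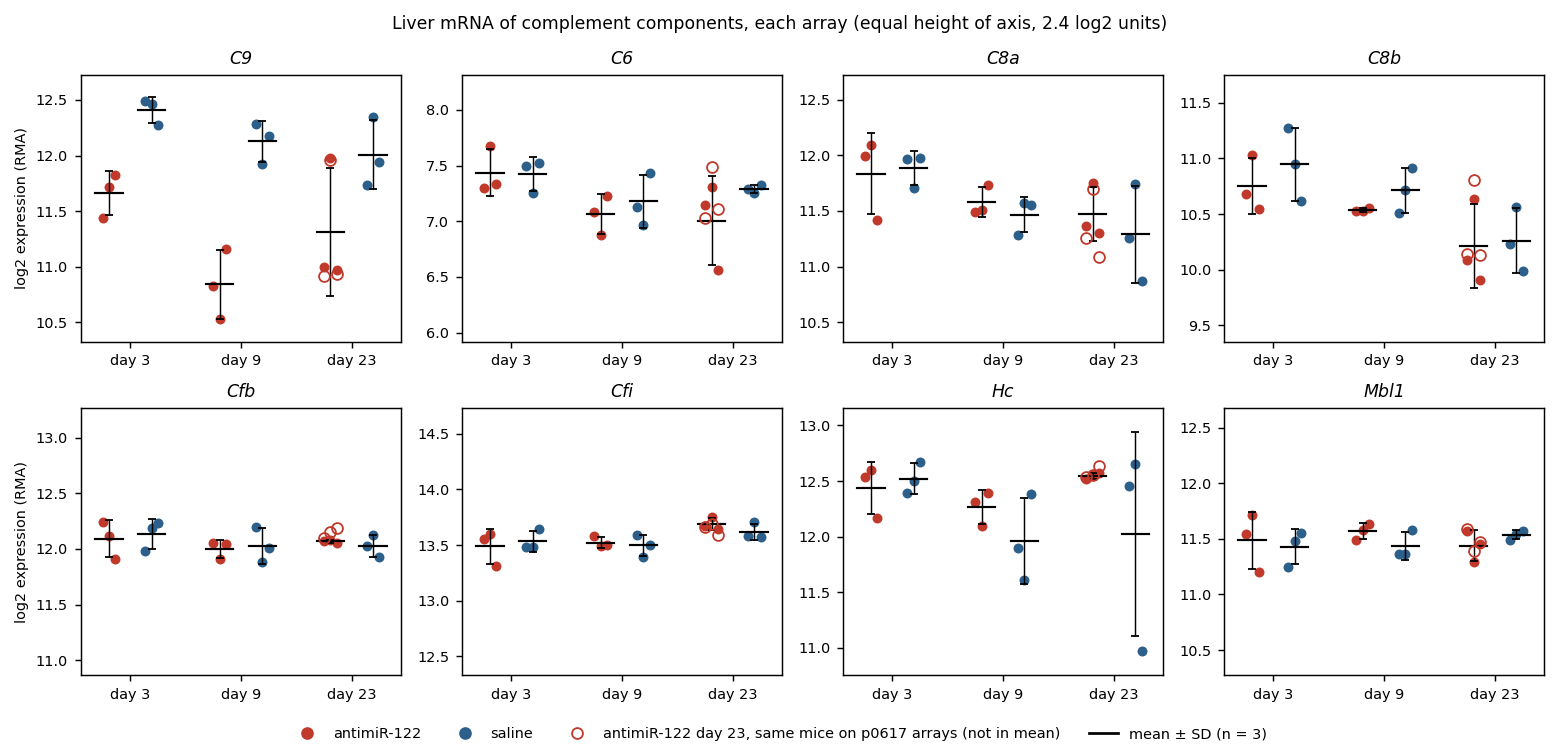
Log2 expression of the 8 measured complement components on each array, by day, with antimiR (red) left of saline (blue), the mean and SD of 3 mice, and open circles for the p0617 arrays of the antimiR mice of day 23. C9 is lower in antimiR livers without overlap at day 3 and day 9, while the groups of the other 7 genes overlap on each day.

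The other terminal components gave no passing difference. C6, which joins C5b first, measured 7.09, 6.87 and 7.23 in antimiR livers at day 9, against 7.13, 6.97 and 7.44 in saline livers. Its levels interleaved, and the difference was -0.12 (95% interval -0.47 to 0.24). At day 3 the C6 difference was 0.01 (95% interval -0.35 to 0.37). At day 23 C6 measured 7.15, 7.31 and 6.56 in antimiR livers and 7.29, 7.26 and 7.32 in saline livers. The low value belonged to antimiR replicate 3, which was 0.55 higher on its p0617 array, at 7.11. The day 23 difference of C6 was -0.28 and, without that replicate, -0.06.

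C8a and C8b encode the alpha and beta chains of C8, and on mouse chromosome 4 no coding gene lies between them. At day 9 C8b measured 10.53, 10.53 and 10.56 in antimiR livers, against 10.51, 10.71 and 10.91 in saline livers. The antimiR arrays were close together and lay within the saline range, with a difference of -0.17 (95% interval -0.59 to 0.24). C8a measured 11.49, 11.51 and 11.74 in antimiR livers at day 9, against 11.29, 11.57 and 11.55 in saline livers, a difference of 0.11 (95% interval -0.31 to 0.53). At day 3 the differences were -0.05 for C8a and -0.19 for C8b, and at day 23 they were 0.18 and -0.05. Deviations of C8a and C8b from their group means went together over the 18 arrays (Pearson r = 0.72), as did those of Cfb and Cfi (r = 0.81). These pairs had the highest values among all pairs of the 8 genes. C8a with Hc gave 0.66 and C9 with C8b 0.59, and the lowest was C9 with Mbl1 at -0.31. These correlations describe arrays that share an RNA sample and a hybridisation.

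Hc, the C5 gene, had the widest spread of the 8 genes among saline mice at day 9 and day 23 (SD 0.39 and 0.92). At day 23 it measured 12.52, 12.55 and 12.57 in antimiR livers, against 12.45, 12.65 and 10.97 in saline livers. The single low array was saline replicate 3. The difference of 0.52 (95% interval -0.11 to 1.16, adjusted p = 0.463) became -0.00495 without that array. At day 9 Hc measured 12.31, 12.10 and 12.39 in antimiR livers and 11.90, 11.61 and 12.38 in saline livers, a difference of 0.30 (95% interval -0.33 to 0.93). At day 3 the difference was -0.08.

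Factor B, factor I and the lectin had the narrowest intervals of the 8 genes. Cfb, the alternative pathway protease, measured 12.24, 12.12 and 11.91 in antimiR livers at day 3, against 11.99, 12.19 and 12.23 in saline livers. Its differences were -0.04, -0.03 and 0.04 at days 3, 9 and 23, and the 95% intervals together reached from -0.26 to 0.26. Cfi, the C3b-inactivating protease, differed by -0.05, 0.03 and 0.07, with intervals reaching from -0.23 to 0.26. A change of Cfb or Cfi larger than 0.26 in size on the log2 scale lay outside the interval on each day.

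Mbl1 measured 11.49, 11.58 and 11.64 in antimiR livers at day 9, against 11.37, 11.37 and 11.58 in saline livers. The antimiR values lay high within an overlapping range, with a difference of 0.13 (95% interval -0.12 to 0.38). The Mbl1 difference was 0.06 at day 3 and -0.10 at day 23. Of the 8 genes, 0 passed at day 3, where 4.51% of all genes did, and 0 at day 23, where 0.385% did. At an unadjusted p under 0.05 the count was 1 on each day, and the gene was C9. The median difference of the 8 genes was -0.05, 0.00034 and -0.0035 at days 3, 9 and 23, beside medians of 0.01, -0.02 and -0.02 over all genes.

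**Figure D2:**
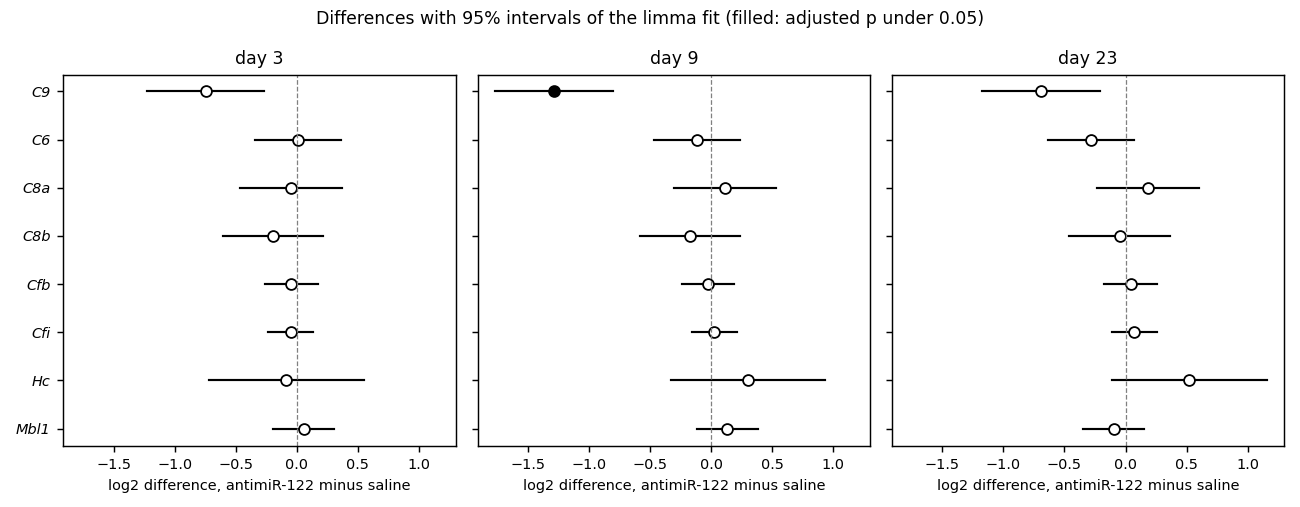
Log2 difference, antimiR minus saline, of the 8 complement components at each day, with 95% intervals of the limma fit; filled points passed at an adjusted p under 0.05. C9 at day 9 (-1.29) is the filled point, and the C9 intervals at day 3 and day 23 lie below 0 without passing after adjustment.

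Some arrays were the lowest of their group for most of these genes, counted at any margin. The margin was at times small, as for C8b of antimiR replicate 2 at day 9 (10.526, against 10.531 in replicate 1). AntimiR replicate 3 was the lowest of its group for 6 of the 8 genes at day 3, antimiR replicate 2 for 6 at day 9 and antimiR replicate 3 for 6 at day 23. Among saline groups the most frequent lowest array was replicate 1 for 4 genes at day 3, replicate 2 for 5 at day 9 and replicate 3 for 5 at day 23. Between the 2 arrays of an antimiR mouse of day 23, C9 differed by 0.02 to 0.08 and C6 by -0.55 to 0.12 (p0621 minus p0617, log2). None of the other 6 genes differed by more than 0.22. Among saline mice, 0 of the 8 genes differed between day 9 and day 3 in the limma test (0 at an unadjusted p under 0.05), where 5.88% of all genes did.

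Genes whose level followed C9 most closely over the 18 arrays were looked up among 11685 others above the median level. The highest Pearson correlations were with Ddx54, an RNA helicase, at 0.87, with Bag2, a chaperone regulator, at 0.87, and with Apon, an apolipoprotein, at 0.86. The lowest were with Suclg2, a succinate-CoA ligase subunit, at -0.94, Rdh9, a retinol dehydrogenase, at -0.88, and Alad, a heme synthesis enzyme, at -0.88. The arrays share the antimiR and saline groups, so these values describe the group difference as well. At day 9 Ddx54 differed by -0.36 and Apon by -0.41, while Suclg2 differed by 0.36, Rdh9 by 1.36 and Alad by 0.48. These 5 passed (adjusted p from 0.000554 to 0.0342, limma), as did 2.81% of all genes. They were picked for their likeness to C9 on the same arrays, so their passing is not independent of that choice. Bag2 differed by -0.52 at day 9 (adjusted p = 0.0671).

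The rest of the complement system was read from 55 listed symbols, of which 39 were measured. At day 3, 4 of the 39 rose and 1 fell, at day 9, 0 rose and 1 fell, and at day 23, 0 of 39 passed (limma). At an unadjusted p under 0.05 the counts were 13, 8 and 4 of 39. The median difference of the 39 genes was 0.08, 0.02 and 0.05 on these days. Among all genes 2.63% rose and 1.88% fell at day 3. At day 9, 0.896% of all genes fell and 2.81% passed either way, and at day 23, 0.385% passed either way.

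The increases at day 3 were in genes known from macrophages and other leukocytes. C1qc, a chain of the C1q recognition molecule, measured 9.00, 9.55 and 8.94 in antimiR livers, against 8.08, 7.84 and 8.71 in saline livers, a rise of 0.95 (SE 0.19, adjusted p = 0.00734, limma). C1qa and C1qb differed by 0.72 and 0.68 without passing. Cfp, properdin, which stabilises the alternative pathway convertase, measured 8.52, 9.12 and 8.41 in antimiR livers and 7.69, 7.30 and 8.16 in saline livers, a rise of 0.97 (adjusted p = 0.00759). The second, dimmer Cfp probe set differed by -0.16 (adjusted p = 0.612, adjusted over all probe sets). The mean of both Cfp probe sets differed by 0.41 and did not pass (adjusted p = 0.120, limma).

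Of 9 measured receptor genes, 2 rose at day 3, beside 2.63% of all genes. Itgb2, the beta chain of complement receptors 3 and 4, averaged 7.32 ± 0.27 in antimiR livers and 6.27 ± 0.37 in saline livers (log2, SD, n = 3 each), a rise of 1.05 (SE 0.16, adjusted p = 0.000858, limma). Vsig4, a complement receptor of Kupffer cells, measured 10.90, 11.32 and 10.80 in antimiR livers and 10.18, 9.72 and 10.69 in saline livers, a rise of 0.81 (adjusted p = 0.0236). In each of these 4 genes saline replicate 3 was the highest saline array. The Vsig4 call ended without antimiR replicate 1 (adjusted p = 0.0552) or 2 (0.101) and without saline replicate 1 (0.0694) or 2 (0.117).

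On the same arrays 8 of 14 Kupffer cell and macrophage markers rose, C1qc and Vsig4 among them, beside 2.63% of all genes. The summed log2 level of the 14 markers is given next. Their summed log2 level was 13.39 to 14.02 in antimiR and 12.53 to 13.44 in saline livers at day 3. At day 9 it was 13.02 to 13.18 in antimiR and 12.76 to 13.14 in saline livers. Of the 14 markers 0 passed at day 9 (limma), with 5 at an unadjusted p under 0.05, where 2.81% of all genes passed. Of other cell markers at day 3, 2 of 10 for lymphocytes, 1 of 8 for endothelium, 1 of 4 for cholangiocytes, 0 of 6 for neutrophils and 0 of 8 for stellate cells rose, and 0 in these lists fell (limma). The summed lymphocyte level at day 3 was 8.67 to 9.31 in antimiR and 8.12 to 8.42 in saline livers. The part of any of these cells in the rise of the 4 complement genes was not tested. With the beta-actin measure as a covariate none of the 5 calls of day 3 held (adjusted p from 0.0638 to 0.357, limma). That measure separates the antimiR and saline arrays of day 3, so it cannot be told apart from the treatment there. On the day's own 6 arrays Itgb2 passed and the other 4 did not. The change in effect between day 23 and day 3 was -1.04 for Itgb2 (adjusted p = 0.0586, limma), and it was -0.88 for C1qc, -0.90 for Cfp and -0.76 for Vsig4 (adjusted p from 0.236 to 0.329).

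Among 8 soluble regulators, Cfhr2, a factor H-related gene, fell at day 3 and day 9, where 1.88% and 0.896% of all genes fell. At day 9 it measured 9.84, 9.92 and 9.66 in antimiR livers, against 10.22, 10.43 and 10.07 in saline livers (difference -0.43, SE 0.11, adjusted p = 0.0359, limma). At day 3 it measured 9.83, 9.73 and 9.88 in antimiR livers and 10.37, 10.27 and 10.04 in saline livers (difference -0.41, adjusted p = 0.0319). The antimiR arrays lay below every saline array at day 3 and at day 9, as was true of 10.4% and 11.2% of all genes on those days. At day 23 the Cfhr2 difference was 0.08. A second Cfhr2 probe set, with a mean level of 6.25, differed by -0.10 at day 3 and 0.13 at day 9 without passing. The mean of both Cfhr2 probe sets differed by -0.26 at day 3 and -0.15 at day 9 and passed on neither day (adjusted p = 0.0978 and 0.404, limma). Factor H-related genes are similar in sequence, so a probe set may also read a relative. The Cfhr2 calls also depended on single arrays: leaving out antimiR replicate 1 ended them (adjusted p = 0.0924 at day 3 and 0.0830 at day 9), as did leaving out either saline replicate 1 (0.132 and 0.0859) or 2 (0.105 and 0.136). AntimiR replicate 2 did so at day 3 (0.103) and antimiR replicate 3 at day 9 (0.156).

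Among the brightest of the remaining genes, Vtn and Clu encode vitronectin and clusterin, which block the membrane attack complex, and differed by -0.07 and 0.07 at day 9. Serping1, the C1 inhibitor, differed by -0.19 (adjusted p = 0.316, limma). C8g, the gamma chain of C8, differed by -0.16 at day 9 (adjusted p = 0.291, limma) and by 0.0038 at day 3. Vtn, Serping1 and C8g were each lower without overlap at day 9, as were 11.2% of all genes. None of Vtn, Clu, Serping1 and C8g passed on any day. Of 7 membrane regulators 0 passed on each day (limma; 1, 1 and 0 at an unadjusted p under 0.05 at days 3, 9 and 23).

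**Figure D3:**
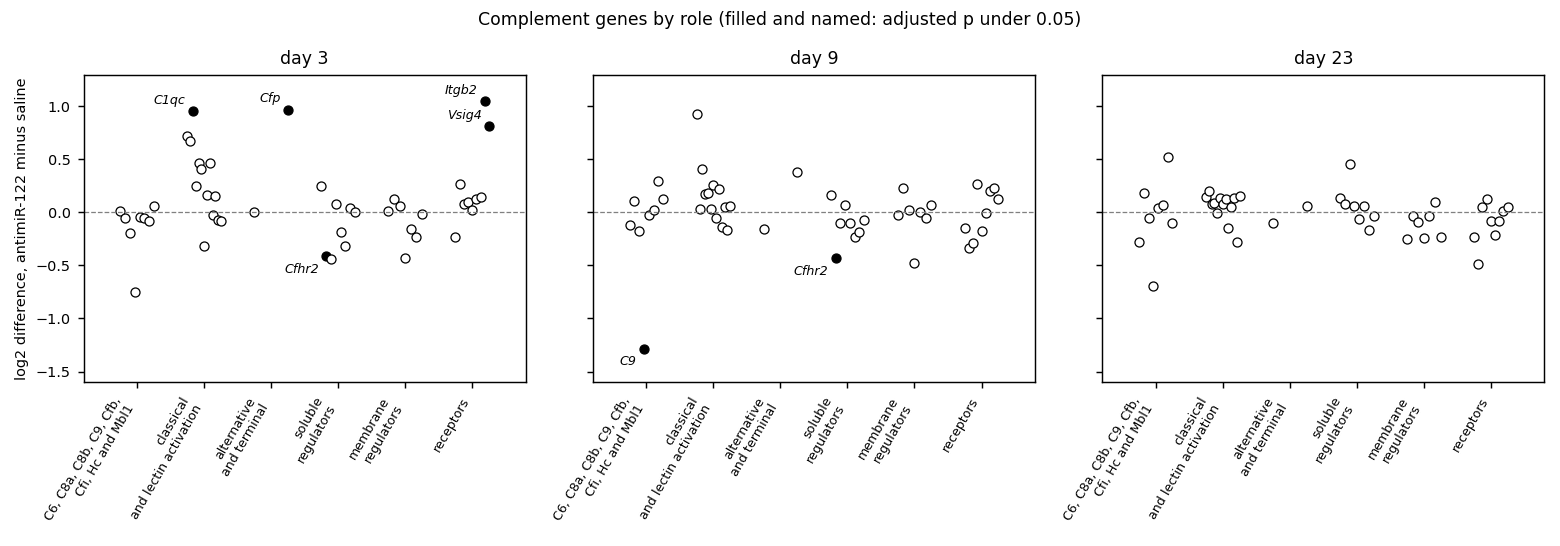
Log2 difference, antimiR minus saline, of the 8 components and of 39 other complement genes grouped by role, at each day; filled and named points passed at an adjusted p under 0.05. C1qc, Cfp, Itgb2 and Vsig4 lie above 0 at day 3, Cfhr2 lies below 0 at day 3 and day 9, and C9 lies lowest at day 9.

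The acute phase genes of the same livers gave a further comparison, since several complement genes are known to respond in the acute phase. At day 3, 5 of 22 measured acute phase genes rose, among them Saa2 by 4.83 and Lcn2 by 2.77 on the log2 scale, and 0 fell. Of all genes 2.63% rose and 1.88% fell on that day. The summed acute phase level was 17.57 to 17.67 in antimiR and 17.26 to 17.41 in saline livers. Of the complement components on the day 3 arrays, Cfb, Hc and Mbl1 differed by -0.04, -0.08 and 0.06. C9 differed by -0.75 (adjusted p = 0.0747, limma), and C6, C8a, C8b and Cfi by 0.01, -0.05, -0.19 and -0.05. Of 39 other complement genes, 4 rose and 1 fell on that day, with 13 at an unadjusted p under 0.05 (limma). C9 differed by -1.29 at day 9 and by -0.69 at day 23, the latter without passing. At day 9, 0 acute phase genes rose and 1 fell, Orm1 (difference -0.46, limma), with 4 at an unadjusted p under 0.05. Of all genes 2.81% passed either way at day 9. A link between the acute phase genes and C9 was not tested. Saa1, Saa2 and Orm2 differed by -1.09, -1.02 and -1.01 without passing (adjusted p from 0.109 to 0.221, limma). The 22 differences ranged from -1.09 to 0.26, with a median of -0.03. The summed level, which the brightest genes rule, was 17.21 to 17.24 in antimiR and 17.21 to 17.27 in saline livers.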

How the data were processed

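The authors deposited log2 expression levels per probe set; RMA is the tool named for them, per the submitters' processing notes. Neither its version nor the set of arrays it was run on is stated in the sources used here. RMA compresses differences between dim probe sets. The table covers 45101 probe sets on 21 arrays, with medians of 4.75 to 4.82 per array.

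The platform annotation gave 1 symbol to 34945 probe sets, several to 932 and none to 9160, besides 64 controls. Where a gene had several probe sets, the brightest over the 18 arrays (1 per mouse, p0621 for day 23) stood for it, which left 18193 genes. Of these, 18032 had an identifier in the RefSeq table (GRCm38.p6), used for chromosomes and neighbours. Group means were fitted with limma (12 residual and 4.85 prior degrees of freedom), two-sided, with Benjamini-Hochberg adjustment over all genes and a threshold of 0.05. The number of arrays limits the precision. In a simulated table of 18193 genes, 60% of changes of 0.5 and 96% of changes of 1 (log2) were called at day 9, 40% and 88% at day 3, and 54% and 100% at day 23. The simulated days shared a setting and differed only in random draws. Each share rests on 50 changed genes, so the shares do not rank the days. The changed genes were drawn at random from all genes, so a share is not the chance of calling a given component. The SE of a daily difference was 0.30 for Hc, 0.23 for C9 and 0.09 for Cfi.

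The genes, lists, tests and settings were chosen with earlier results of these data known. Named were all 8 genes, every other complement gene that passed and the brightest others of a list, marker and acute phase genes among those with the largest differences, and the 3 genes most and least like C9. Alternatives were the day's own arrays, quantile normalization, median centring, genes above the median level, means of a gene's probe sets, all probe sets tested singly, a trended robust prior, a replicate block, the second arrays (p0617) of the antimiR mice of day 23, all 21 arrays with the mouse as a block, the beta-actin covariate, and each array left out. The design text gives 3 biological replicates per group, and mouse numbers that recur between day 3 and day 9 were taken as different animals. Between arrays, 0 pairs held identical values. The software was limma 3.58.1 in R 4.3.3, and Python 3.11.15 with matplotlib 3.10.9 for figures.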

Additional observations from a re-analysis of the deposited data

How the results depend on the processing

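C9 at day 9 stayed lower under all 16 alternatives (-1.44 to -1.13) and passed under 15, with adjusted p from 0.00554 to 0.185; the beta-actin covariate ended the call (0 components passed there). Leaving out each of the 6 arrays of day 9 kept it (-1.44 to -1.13, adjusted p 0.0109 to 0.0313). At day 3, C9 was -0.83 to -0.58 and passed on the day's own arrays (1 component in place of 0). At day 23 it was -1.03 to -0.52 and passed under none of 17. The mean over days passed under 27 of 28 alternatives and not with the covariate (-0.80, adjusted p = 0.0508). Leaving out arrays gave 0 to 0 components at days 3 and 23 and 1 to 1 at day 9.

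The other 7 genes passed under none of 343 alternative values (lowest adjusted p 0.259), and 28 of these, in 14 of 21 gene and day pairs, changed sign; the cause was not tested. Median centring gave C6 -0.00806 at day 3. The covariate gave C6 -0.28, C8a 0.12 and Mbl1 -0.11 at day 3, Mbl1 -0.027 at day 9, and -0.12 for C9 between days 23 and 3. C8b at day 23 was 0.10 on the p0617 arrays and 0.025 with all 21 arrays. Leaving out single arrays gave ranges that crossed 0. At day 3 these were C6 -0.11 to 0.080, C8a -0.18 to 0.16, Cfb -0.12 to 0.045, Cfi -0.11 to 0.041, Hc -0.17 to 0.049 and Mbl1 -0.054 to 0.20. At day 9 they were C6 -0.22 to 0.013, Cfb -0.10 to 0.060 and Cfi -0.024 to 0.074. At day 23 they were C8a -0.030 to 0.41, C8b -0.26 to 0.10, Cfb -0.0087 to 0.092 and Hc -0.0049 to 0.84, and for C9 between days 23 and 3 -0.28 to 0.23.

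Other complement genes past the threshold numbered 5, 1 and 0 at days 3, 9 and 23. On own arrays the counts were 1 (Itgb2) at day 3 and 0 at day 9, with the covariate 0 at days 3 and 9, and with every probe set 0 at day 9. Averaging the probe sets of each gene gave 4 at day 3, without Cfp and Cfhr2 and with Masp1, 2 at day 9 (Masp1 and Masp2) and 1 at day 23 (C3ar1), and genes above the median level gave 1 at day 23 (Masp2). Leaving out single arrays gave 3 to 7 at day 3, 0 to 1 at day 9 and 0 to 0 at day 23.

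Replicate numbers did not pair the mice: deviations of same-numbered antimiR and saline mice correlated at -0.14 to 0.08 over 9 pairs. With the replicate block C9 was -1.29 at day 9 (adjusted p = 0.0115), and the counts of calls stayed at 0, 1 and 0 components and 5, 1 and 0 other complement genes at days 3, 9 and 23.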
